A study of Mus musculus with 4 samples.

Results

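The T cell receptor complex and its first signalling proteins are described here across 4 sorted populations of heart cells that the labels call macrophages, through 10 named genes: the CD3 chains Cd3e, Cd3d, Cd3g and Cd247, the coreceptors Cd8a and Cd4, the kinases Lck and Zap70, and Lat and Themis, which act close to the receptor. Of the 10, 9 had a probe set with that symbol in the platform annotation, out of 19505 genes in all, and each of the 9 had a single probe set. Lck was not analysed here. In the library titled CD74, 8 of the 9 genes lay at least 2-fold above each of the other 3 libraries, while in those libraries most of them lay in the range of background. That library also held macrophage markers at far lower levels than the other 3, as given with the markers of other cell types, and it is called by its title throughout.

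The 4 libraries, titled CD74, Ccrl2, CD163 and Trem2, each came from 1 sorted population and 1 Clariom S mouse array, an oligonucleotide array that reports 1 value per gene region. The mice were wild-type C57BL/6N animals, 15 to 16 weeks old, in which transverse aortic constriction (TAC), a surgical narrowing of the aorta, had put a pressure load on the left ventricle. Before sorting, the cells of 6 hearts were mixed, all groups carried the TAC surgery, and the series design names them Ctrl-TAC mice. Source names place the sampling 8 weeks after surgery and the growth protocol places it 1 week after. CD9 stands in the source name of the library titled CD74, while the growth protocol names Lyve1 cells and no CD163 cells. With 1 library per population there is no replicate error, no test was possible, and every difference below compares 4 arrays. Values are the deposited log2 values, and the background ceiling of a library is the 95th percentile of its values for 1498 genes of chemosensory receptors and keratin-associated proteins.

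A T cell recognises antigen through a receptor whose variable chains have no signalling tails of their own. The CD3 chains and the zeta chain, encoded by Cd247, carry the phosphorylation motifs, CD4 and CD8 bring the Src family kinase LCK to the complex, and ZAP70 then phosphorylates the scaffold LAT. These genes are textbook markers of T cells, although CD247, ZAP70 and LAT also serve natural killer (NK) cells, LAT is found in mast cells and platelets, and CD4 is also carried by some dendritic cells and macrophages. In an inflamed heart T cells are a minor population beside macrophages. In bulk RNA of a sorted population, more T cells and more RNA per T cell cannot be told apart.

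Cd3e, Cd3d and Cd3g lie together on mouse chromosome 9, apart from Cd247 on chromosome 1. The 200 bases before the RefSeq starts of these 3 genes (GRCm38.p6) are shown. The 3 were above the ceiling in CD74 alone, as were Cd8a and Themis, whose windows are not shown. Capitals mark matches, on either strand, to the ETS-type letters AGGAAG and the E-box letters CANNTG. The windows are chr9:45009612-45009811 on the minus strand for Cd3e, chr9:44981586-44981785 on the plus strand for Cd3d and chr9:44980432-44980631 on the minus strand for Cd3g, so that Cd3d and Cd3g are neighbours read in opposite directions.
Cd3e: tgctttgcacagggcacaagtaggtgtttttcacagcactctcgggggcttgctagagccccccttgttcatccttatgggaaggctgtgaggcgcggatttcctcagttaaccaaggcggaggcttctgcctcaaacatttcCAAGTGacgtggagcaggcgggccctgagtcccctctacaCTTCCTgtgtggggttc
Cd3d: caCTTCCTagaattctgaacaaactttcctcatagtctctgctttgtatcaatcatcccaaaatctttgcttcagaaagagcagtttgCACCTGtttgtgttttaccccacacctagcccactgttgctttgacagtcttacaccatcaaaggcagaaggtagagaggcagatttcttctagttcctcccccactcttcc
Cd3g: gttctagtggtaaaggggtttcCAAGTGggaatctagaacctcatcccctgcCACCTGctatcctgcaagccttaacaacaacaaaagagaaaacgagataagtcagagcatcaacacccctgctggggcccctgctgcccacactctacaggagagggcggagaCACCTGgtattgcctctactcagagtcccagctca

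The RefSeq promoter table held windows for 8 of the 9 genes, Cd4 being the other one, and 11 windows in all because Zap70 and Themis have several starts. The 2 windows of Themis overlap and share their E-box match, so the 11 are not separate promoters. An E-box match stood in 11 of the 11 windows, against 58.2% of the 32851 windows in the table. The ETS-type letters stood in 6 of the 11 windows, against 24.7%, and the RUNX-type letters TGTGGT in 1 of the 11, against 11.2%. The letters TATAAA stood in 0 of the 11 windows, against 9.96% of all windows. No match of one kind overlapped a match of another kind. These matches describe letters in a window and say nothing on whether a factor binds there.

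**Figure D1:**
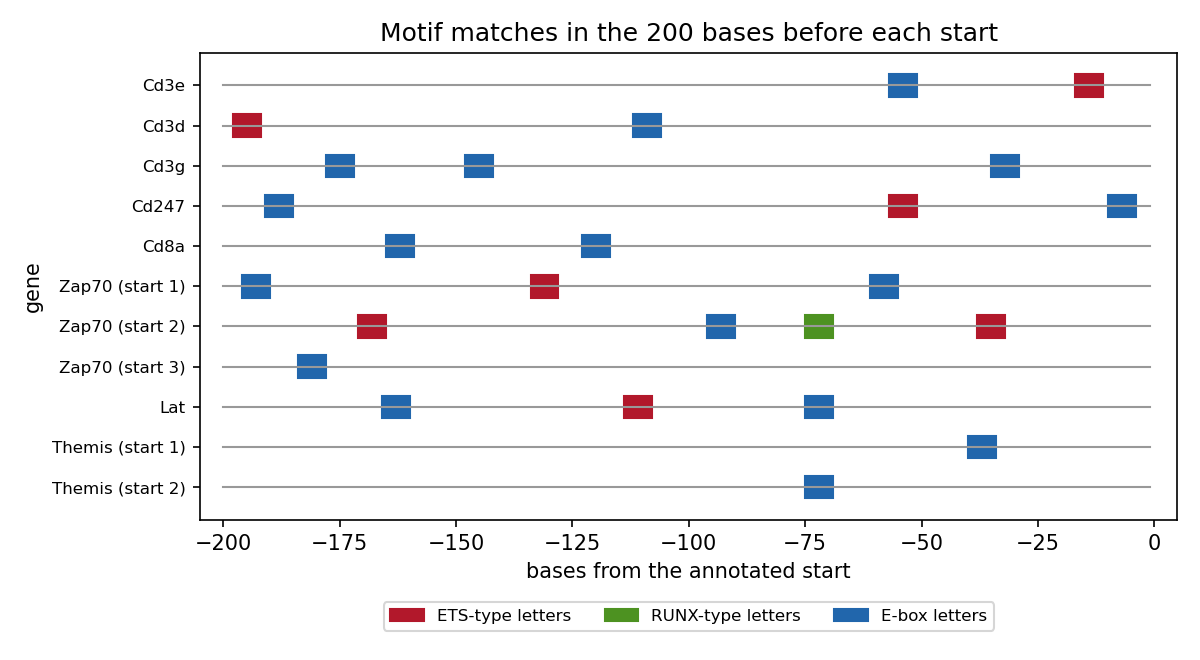
Positions of letter matches (coloured boxes) in the 200 bases before each annotated start of 8 genes, with the distance from the start in bases on the horizontal axis and 1 line per start. E-box matches appear on all 11 lines, ETS-type matches on 6 and a RUNX-type match on 1.

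The first question was where the arrays recorded these genes at all. The background ceiling was 6.53 in CD74, 5.67 in Ccrl2, 6.28 in CD163 and 5.51 in Trem2, and 18.6%, 38.2%, 25.6% and 41.8% of all genes lay above it in the same order. In CD74, 8 of the 9 receptor genes lay above the ceiling, although that library had the smallest share of genes above it. In each of Ccrl2, CD163 and Trem2, 2 of the 9 did. Cd3e, Cd3d, Cd3g, Cd8a and Themis were above the ceiling in CD74 alone, Cd4 was above it in all 4 libraries, and Zap70 in none.

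**Figure D2:**
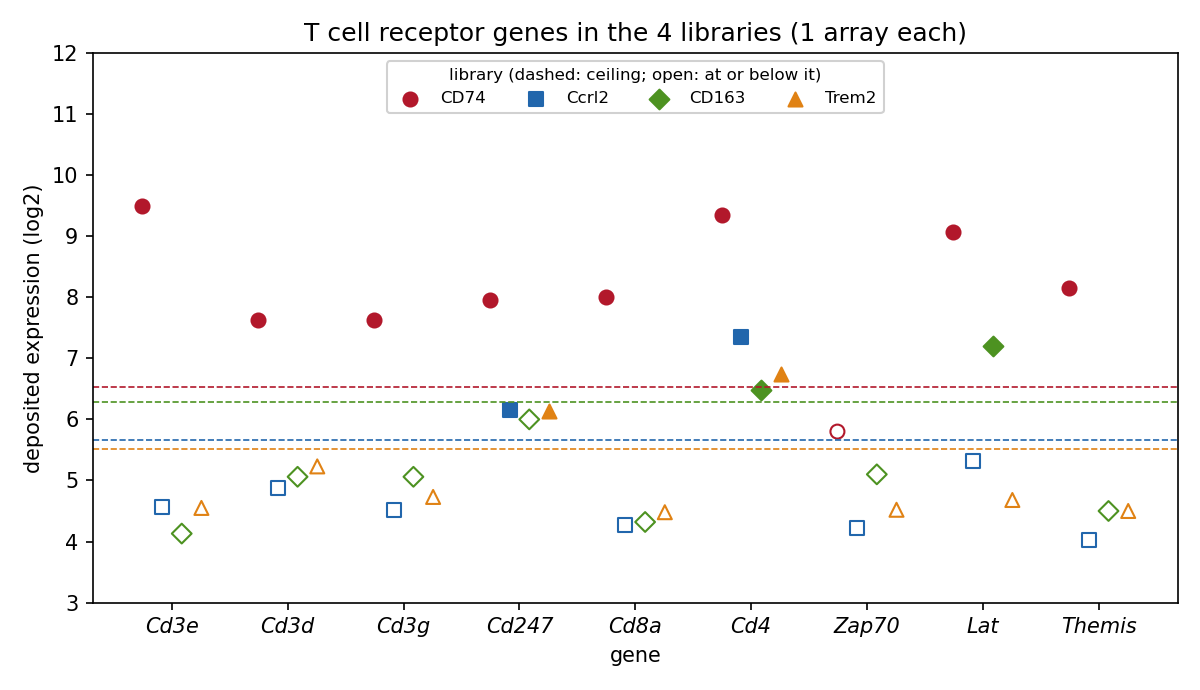
Deposited log2 expression (vertical axis) of 9 T cell receptor genes (horizontal axis) in 4 libraries, 1 array each and therefore without error bars; dashed lines are the background ceilings and open symbols lie at or below their library's ceiling. All 9 genes have their highest value in CD74, with 8 above its ceiling of 6.53.

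Among the CD3 chains, Cd3e, whose product pairs with the other CD3 chains at the core of the complex, had a log2 level of 9.50 in CD74, 4.56 in Ccrl2, 4.13 in CD163 and 4.55 in Trem2. CD74 was the one high library, and the other 3 lay within 0.43 of each other and under their ceilings. The excess of CD74 was at least 14.2-fold over Ccrl2, at least 9.32-fold over CD163 and at least 15.9-fold over Trem2, where "at least" means that the lower value was set at its library's ceiling.

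Cd3d, the delta chain, had 7.62 in CD74, 4.88 in Ccrl2, 5.06 in CD163 and 5.23 in Trem2. Cd3g, the gamma chain, had 7.62, 4.52, 5.06 and 4.73 in the same order. In both genes CD74 stood alone above the ceiling and the remaining libraries were not 2-fold apart. For either chain the excess over CD163, the library with the next highest ceiling, was at least 2.53-fold.

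Cd247, the zeta chain that carries most of the receptor's phosphorylation motifs, had 7.95 in CD74, 6.16 in Ccrl2, 6.00 in CD163 and 6.14 in Trem2. It was measured above the ceiling in Ccrl2 and Trem2 as well, so its excess in CD74 is a measured 3.46-fold over Ccrl2 and 3.51-fold over Trem2. The 3 lower libraries lay within 0.16 of each other.

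The coreceptors did not share a profile. Cd8a, the chain that binds class I molecules on the antigen-presenting cell, had 8.01 in CD74, 4.27 in Ccrl2, 4.32 in CD163 and 4.48 in Trem2. Only CD74 was above its ceiling, and the excess was at least 5.06-fold over Ccrl2, 3.32-fold over CD163 and 5.66-fold over Trem2. Its partner chain Cd8b1 had 7.79 in CD74 and between 4.18 and 4.99 in the others.

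Cd4, which binds class II molecules, had 9.35 in CD74, 7.35 in Ccrl2, 6.48 in CD163 and 6.75 in Trem2. It was the one gene of the 9 with a level above the ceiling in every library, though close to it in CD163, where the ceiling was 6.28. Its measured excess in CD74 was 4.0-fold over Ccrl2, 7.31-fold over CD163 and 6.06-fold over Trem2, and the order of the other 3 libraries rests on differences of 0.60 and 0.27, both under 2-fold.

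Among the proximal kinases and adaptors, Zap70, the kinase that docks on phosphorylated CD3 and zeta chains, had 5.80 in CD74, 4.22 in Ccrl2, 5.10 in CD163 and 4.52 in Trem2. All 4 values lay under their ceilings, and 249 of the 1498 background genes were as high or higher in CD74. A level of Zap70 was thus not detectable on any of these arrays.

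Lat, the membrane scaffold that ZAP70 phosphorylates, had 9.07 in CD74 and 7.21 in CD163, with 5.32 in Ccrl2 and 4.68 in Trem2. It was the one gene with an intermediate library, with CD163 above its ceiling and Ccrl2 and Trem2 below theirs. The excess of CD74 over CD163 was a measured 3.63-fold, and that of CD163 was at least 2.91-fold over Ccrl2 and at least 3.25-fold over Trem2. Themis, an adaptor that tunes receptor signalling during T cell selection, had 8.15 in CD74, 4.02 in Ccrl2, 4.50 in CD163 and 4.50 in Trem2, and CD74 was again the one library above its ceiling.

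The next comparison set each pair of libraries side by side, counting a gene as higher where it was at least 2-fold apart and above the ceiling of the higher library. Against Ccrl2, CD74 was higher in 8 of the 9 genes and lower in 0, beside 3.65% and 19.8% of all 19505 genes. Against CD163 the counts were 8 and 0, beside 5.24% and 10.2%. Against Trem2 they were again 8 and 0, beside 3.33% and 22.0%. Over all genes, higher and lower calls in CD74 numbered 712 and 3858 against Ccrl2, 1023 and 1995 against CD163, and 649 and 4300 against Trem2. After quantile normalization, which gives the columns a common distribution, they numbered 1605 and 2626, 1547 and 1969, and 1543 and 2782, and the receptor genes stayed at 8 and 0 in each pair. The 8 receptor genes thus lay on the side of CD74 that held fewer genes, on either scale.

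Counted against all 3 other libraries together, CD74 was at least 2-fold higher in 8 of the 9 genes, beside 2.12% (413) of all genes. The gene outside the count was Zap70, with a margin of 0.70 over CD163. The median difference between CD74 and the mean of the others was 2.85 over the 9 genes and -0.08 over all genes. Margins over the nearest library ran from 1.79 in Cd247 to 4.94 in Cd3e.

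Among the other 3 libraries the 9 genes hardly separated. Ccrl2 was higher than CD163 in 0 of the 9, beside 15.6% of all genes, and higher than Trem2 in 0, beside 3.50%. Trem2 was higher than Ccrl2 in 0, beside 5.16%, and higher than CD163 in 0, beside 16.9%. CD163 was higher than Ccrl2 in 1 gene, Lat, beside 3.10% of all genes, and higher than Trem2 in 1, again Lat, beside 3.34%. With 9 genes, counts of 0 and 1 are no result about the set beside these shares. Quantile normalization changed the split over all genes here too, to 1753 higher in Ccrl2 and 1183 higher in CD163, 1940 higher in Trem2 and 1338 higher in CD163, from 3038 and 604, and 3301 and 651. For Ccrl2 and Trem2 the numbers of genes higher were 683 and 1006 as deposited, and 503 and 609 after it.

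**Figure D3:**
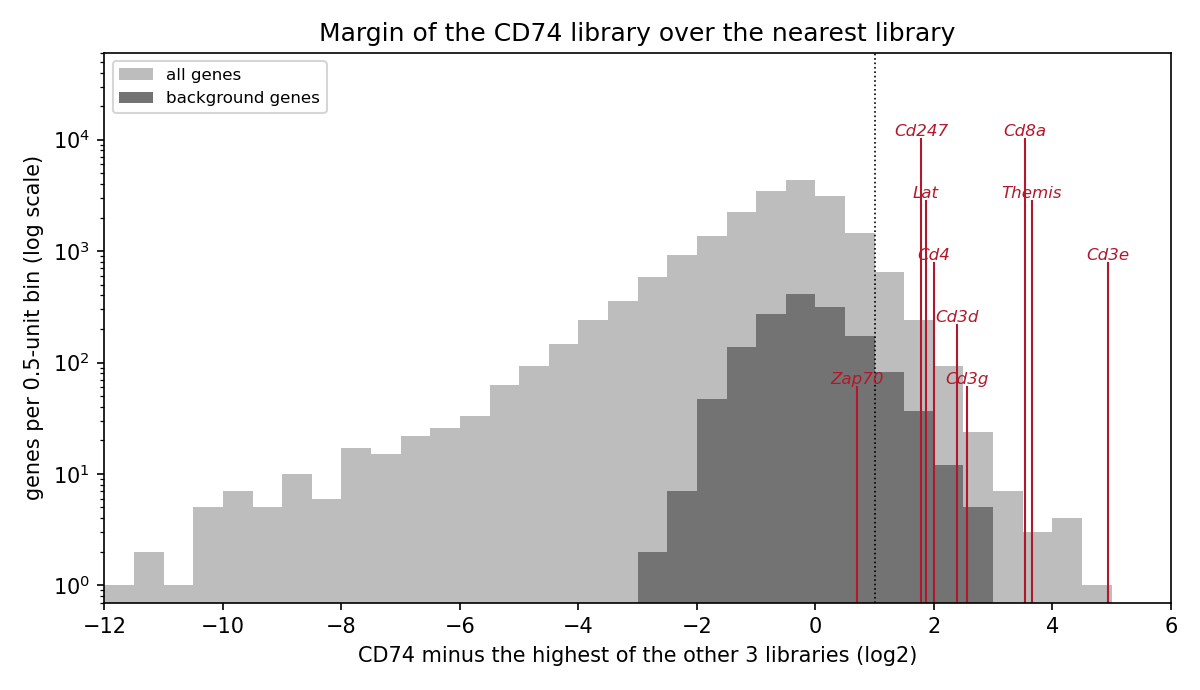
Number of genes (vertical axis, log scale) by the margin of CD74 over the highest of the other 3 libraries (horizontal axis, log2 units, bins of 0.5), for all 19505 genes and the 1498 background genes, with red lines at the 9 receptor genes and a dotted line at 2-fold. Only Zap70, at 0.70, lies left of the dotted line, and Cd3e lies farthest right at 4.94.

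The CD74 array, and to a like degree the CD163 array, carried more scattered high values than the Ccrl2 and Trem2 arrays. This bears on the lower of the CD74 levels. Of the 413 genes in CD74 at least 2-fold above each other library, 51 were background genes. In CD163 they were 29 of 264 such genes, in Ccrl2 5 of 341 and in Trem2 2 of 529. The highest background gene in CD74 had 8.07. Cd3e, Cd4, Lat and Themis lay above that value, Cd8a and Cd247 were reached by 1 background gene each, and Cd3d and Cd3g by 2.

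The profile over 4 libraries did not by itself mark out T cell genes. The mean profile of the 8 measured receptor genes, as the difference of each library from the gene's own mean, was 2.40 in CD74, -0.87 in Ccrl2, -0.66 in CD163 and -0.87 in Trem2. The 5 other genes nearest to it by root mean square distance were Olfr527 (0.111), Fam71d (0.125), Fkbp1b (0.134), Vmn1r226 (0.157) and Olfr830 (0.176). Olfr527, Vmn1r226 and Olfr830 are chemosensory receptor genes of the background set, with 7.27, 6.59 and 8.07 in CD74. A likeness over 4 points is thus shared by background genes and is given as a description only.

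The remaining genes of the pathway were followed through lists of receptor chains, signalling proteins, coreceptors of activation and transcription factors. Beside the list counts stand the shares of all genes higher in CD74, 3.65% against Ccrl2, 5.24% against CD163 and 3.33% against Trem2. Lower in CD74 were 19.8%, 10.2% and 22.0% in the same order. In lists this short, a count near its share is no result about the list. Of 21 proximal signalling partners with a probe set, CD74 was higher in 7 and lower in 5 against Ccrl2, higher in 7 and lower in 0 against CD163, and higher in 5 and lower in 6 against Trem2. After quantile normalization these counts were 8 and 1, 10 and 0, and 7 and 0. The partners at least 2-fold above every other library were 4, beside 2.12% of all genes. Txk, a Tec family kinase of T cells, had 7.75 in CD74 and at most 5.18 elsewhere, and Grap2, an adaptor that links LAT to SLP-76, had 9.02 against 7.27 or less. Sh2d2a, an adaptor that binds LCK, had 7.14 against 5.58 or less, and Lax1, an adaptor related to LAT in build, 6.93 against 5.62 or less. Ptprc, the CD45 phosphatase of all leukocytes, had 18.24 in CD74, 17.96 in Trem2, 17.09 in Ccrl2 and 13.32 in CD163. Among the partners lower in CD74 as deposited, Sla had 8.94 in CD74, 11.97 in Trem2 and 11.24 in Ccrl2. Lcp2, which encodes SLP-76, had 7.13, 9.04 and 9.67 in the same order, and Vav1 6.77, 8.96 and 8.16.

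Downstream of the receptor the picture was mixed. Of 17 genes with a probe set, CD74 was higher in 6 and lower in 5 against Ccrl2, higher in 7 and lower in 2 against CD163, and higher in 4 and lower in 6 against Trem2. After quantile normalization they were 9 and 4, 7 and 1, and 7 and 3, so that against Trem2 the balance turned. Prkcq, the protein kinase C isoform of the T cell synapse, had 9.26 in CD74, 6.60 in Trem2, 5.10 in CD163 and 4.42 in Ccrl2, with the last 2 below the ceiling. Dgka, a diacylglycerol kinase that dampens receptor signals, had 12.16 in CD74 and 10.24 in Trem2. Dock2, a Rac activator of leukocytes, had 13.48 and 12.21, and Cblb, a ubiquitin ligase that restrains activation, 12.25 and 11.43, so that Cblb was not 2-fold apart between these libraries. Among the genes lower in CD74 as deposited, Arhgef6 had 8.44 in CD74, 11.30 in Trem2 and 11.72 in Ccrl2. Cbl had 7.33, 10.41 and 10.05 in the same order. Coro1a had 5.64 in CD74, under the ceiling, 8.60 in Trem2 and 8.44 in Ccrl2.

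Of 15 costimulation and adhesion receptors, CD74 was higher in 6 and lower in 0 against both Ccrl2 and CD163, and higher in 4 and lower in 1 against Trem2. Above the ceiling were 6 of the 15 in CD74, 0 in Ccrl2, 1 in CD163 and 7 in Trem2. Of all genes, 18.6%, 38.2%, 25.6% and 41.8% lay above it in the same order. The Trem2 count is near its share and is no result about the list. Icos and Cd28, costimulatory receptors of T cells, had 8.98 and 8.40 in CD74 against 5.55 in Trem2 for both genes. Other genes of the list, Cd5 (5.85), Cd6 (5.39), Cd96 (6.11) and Cd226 (5.54), were under the ceiling in CD74. Cd2 had 6.95 in CD74 and 7.55 in Trem2. Cd7, an early T and NK cell marker, had 7.11 in CD74 and was under the ceiling in the others, as was Tigit, an inhibitory receptor, with 7.40. Of 11 T cell transcription factors, CD74 was higher in 5 and lower in 0 against CD163, higher in 5 and lower in 2 against Ccrl2, and higher in 2 and lower in 2 against Trem2. After quantile normalization 0 were lower in CD74 in any pair, and 5 were higher than in Trem2. Lef1, a factor of naive T cells, had 9.76 in CD74 against 5.55 in Trem2, and Satb1, a chromatin organiser of the T cell lineage, 10.75 against 8.69. Ikzf3 and Ets1, lymphoid factors, had 9.22 and 12.13 in CD74 against 8.33 and 11.25 in Trem2, less than 2-fold apart. The 2 factors lower in CD74 against Ccrl2 and against Trem2 as deposited were Runx3 and Id2. Runx3 had 7.74 in CD74, 9.86 in Ccrl2 and 9.77 in Trem2, and Id2 12.56, 15.12 and 14.96. Bcl11b (5.29), Tox (5.92), Tbx21 (4.68) and Zbtb7b (6.44) were under the ceiling in CD74. Zbtb7b was above the ceiling in the other libraries, with 6.50 in Ccrl2, 7.08 in CD163 and 6.00 in Trem2.

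The list of ITAM adaptors of other leukocytes did not share the profile of the receptor genes. The list of Src family kinases held too few genes to say. Of 10 ITAM adaptors and their kinases and scaffolds outside the T cell receptor, CD74 was higher in 1 and lower in 6 against Ccrl2, higher in 2 and lower in 4 against CD163, and higher in 0 and lower in 9 against Trem2, where 19.8%, 10.2% and 22.0% of all genes were lower in CD74. The B cell chain Cd79a was among those higher in CD74, with 10.70 against 9.66 in Ccrl2 and 6.31 in CD163, but 11.80 in Trem2. Fcer1g and Tyrobp, the ITAM chains of myeloid receptors, had 10.97 and 6.84 in CD74 and at least 13.45 and 9.37 elsewhere. Blnk, a scaffold of B cells and macrophages, had 5.77 in CD74, under the ceiling, and 10.15 in Ccrl2, while Btk, a Tec family kinase, had 6.63 in CD74 and 10.56 in CD163. Of 5 Src family kinases with a probe set, CD74 was higher in 0 in every pair and lower in 0 against Ccrl2, 1 against CD163 and 2 against Trem2, too few genes to set against the shares over all genes. Fyn, the Src kinase that T cells share with other cells, had between 7.38 and 8.05 in all 4 libraries, and Fgr, Src and Blk were under the ceiling in CD74.

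**Figure D4:**
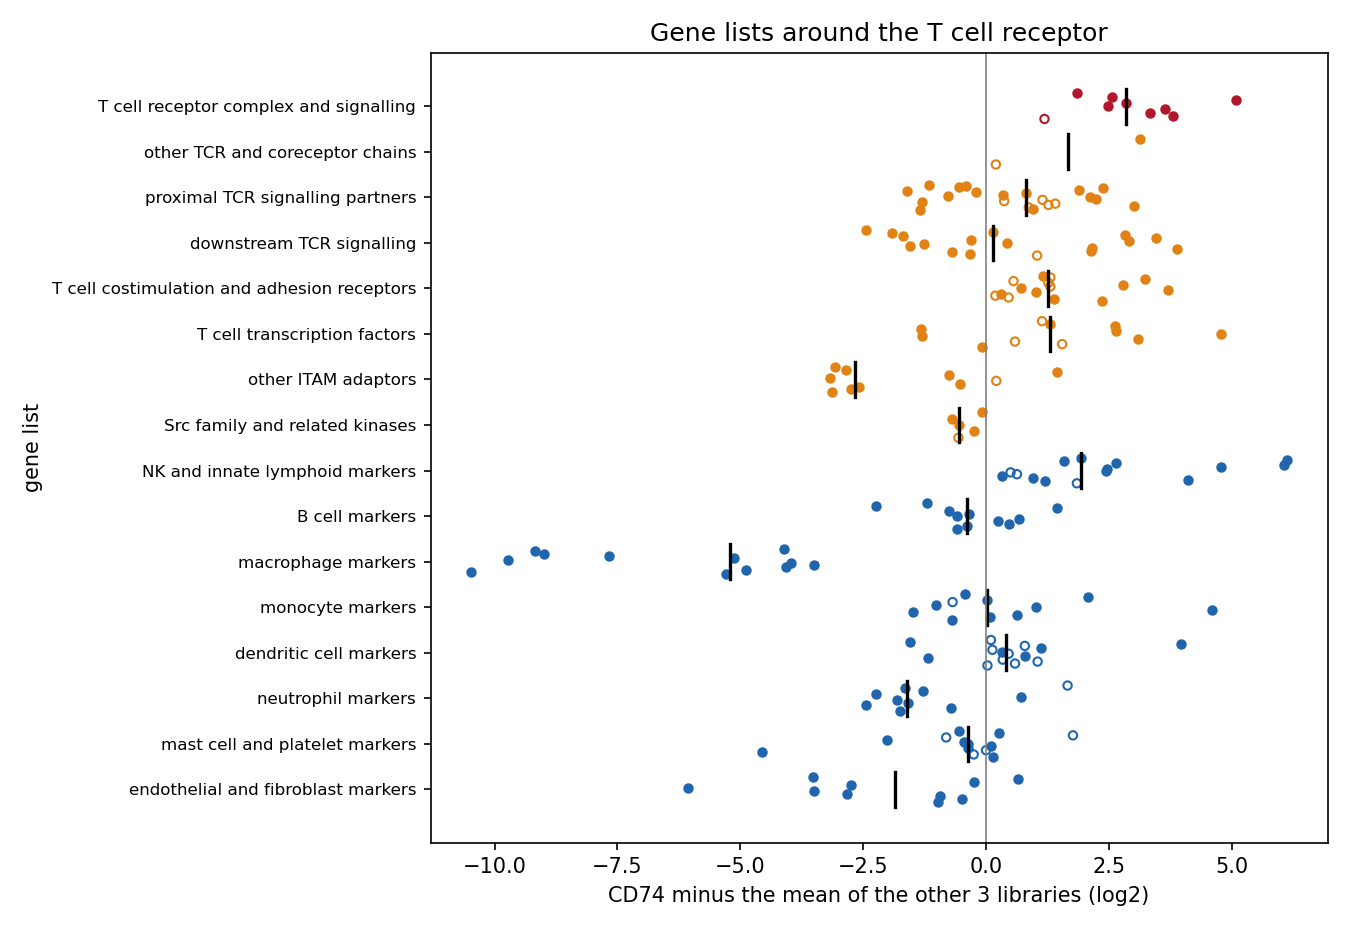
CD74 minus the mean of the other 3 libraries (horizontal axis, log2 units) for each gene with a probe set in 16 lists (vertical axis), with the T cell receptor genes in red, other pathway lists in orange and markers of other cell types in blue; black bars are list medians and open circles are genes under the ceiling in every library. The median is 2.85 for the receptor genes, 1.93 for NK and innate lymphoid markers and -5.21 for macrophage markers.

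Markers of other cell types differed in direction. The median difference of CD74 from the mean of the others was 1.93 for NK and innate lymphoid markers, 0.40 for dendritic cell, 0.02 for monocyte, -0.37 for mast cell and platelet, -0.39 for B cell, -1.61 for neutrophil, -1.86 for endothelial and fibroblast and -5.21 for macrophage markers. Macrophage markers above the ceiling were 10 of 12 in CD74 and 12 of 12 in each other library, but the median level of the list was 8.38 in CD74 against 15.61 in Ccrl2, 14.55 in CD163 and 14.59 in Trem2. All 12 were at least 2-fold lower in CD74 than in each other library. Of all genes, 19.8% were lower against Ccrl2, 10.2% against CD163 and 22.0% against Trem2. Adgre1, which encodes F4/80, had 9.66 in CD74 and 13.30 or more elsewhere, and Mrc1, the mannose receptor, had 9.46 against the top of the scale, 19.93, in the others. Mertk (3.90) and Fcgr1 (5.12), which define mature macrophages, lay under the ceiling in CD74. The labelled cell type was thus recorded in CD74 at far lower marker levels than in the other 3 libraries.

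NK and innate lymphoid markers above the ceiling were 9 of 15 in CD74, 1 in Ccrl2, 2 in CD163 and 12 in Trem2, with medians of 7.46, 4.54, 5.15 and 6.56. Of all genes, 18.6%, 38.2%, 25.6% and 41.8% lay above it in the same order. At least 2-fold above every other library in CD74 were 7 of the 15, beside 2.12% of all genes. These were Gzma (13.01), Il2rb (11.91), Il7r (9.84), Nkg7 (9.75), Il18rap (7.76) and the NK receptor genes Klrb1c (9.02) and Klrc1 (7.43). Another NK receptor gene, Ncr1 (6.48), lay just under the CD74 ceiling of 6.53, and the perforin gene Prf1 (6.27) was under it too. The rest of the list under that ceiling were Klrd1 (5.51), Klrk1 (5.99), Klrg1 (5.08) and Xcl1 (6.15). Klrk1 had 6.86 in Trem2, above the ceiling there. Whether NK cells or T cells gave the levels of the 7 high genes was not tested. The part of NK cells in the levels of Cd247 and Lat was not tested. B cell markers were above the ceiling in 7 of 11 cases in CD74, 9 in Ccrl2, 3 in CD163 and 11 in Trem2. Of them, 0 were highest in CD74 by 2-fold, beside 2.12% of all genes. The median difference of that list turned with scaling, from -0.39 as deposited to 0.50 after quantile normalization.

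Monocyte markers were above the ceiling in 7 of 11 cases in CD74, 6 in Ccrl2, 2 in CD163 and 10 in Trem2. The shares of all genes above it were 18.6%, 38.2%, 25.6% and 41.8% in the same order. CD74 was higher in 1 of the 11 monocyte markers and lower in 7 against Trem2, beside 3.33% and 22.0% of all genes. Against Ccrl2 it was higher in 4 and lower in 2, beside 3.65% and 19.8%. Against CD163 it was higher in 7 and lower in 0, beside 5.24% and 10.2%. Plac8 had 9.65 in CD74, 12.52 in Trem2, 8.22 in Ccrl2 and 6.30 in CD163, and Nr4a1 12.39, 15.23, 15.57 and 10.85. Ccr2 had 8.60 in CD74, 7.76 in Trem2, 7.49 in Ccrl2 and 4.32 in CD163. Ly6c2, a surface antigen of monocytes and also of some T cells, was the one at least 2-fold higher in CD74 than in every other library. It had 12.55 in CD74, 10.98 in Trem2 and 6.90 or less elsewhere. Dendritic cell markers were above the CD74 ceiling in 3 of 14, with the defining genes Flt3, Zbtb46, Xcr1 and Clec9a under it. Ccr7, a homing receptor of dendritic cells and naive T cells, had 14.97 in CD74 against 11.68 or less elsewhere. Mast cell and platelet markers were above the CD74 ceiling in 3 of 13, Cpa3 (7.64), Hdc (7.48) and Mcpt4 (6.55). Cpa3 had 9.54 in Trem2, 6.36 in Ccrl2 and 6.24 in CD163, and Hdc 13.77, 8.89 and 5.85. Kit, Ms4a2, Pf4 and Itga2b were under the ceiling in CD74. Neutrophil markers were above it in 5 of 10 and endothelial and fibroblast markers in 4 of 10. No gene of the last 3 lists was 2-fold highest in CD74, beside 2.12% of all genes. With 18.6% of all genes above the ceiling in CD74, the dendritic cell and the mast cell and platelet counts are no result about these lists. Whether any of these cell types contributed to the receptor gene levels was not tested.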

How the data were processed

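The authors deposited log2 values, 1 column per library; robust multichip average (RMA) gave background correction, normalization and probe set summary, per the labels' protocols. That the scale is log2 follows from the range of values (2.97 to 19.93). The settings of RMA were not given in the sources used here. Column medians over 22206 gene probe sets ran from 5.13 to 5.30 and 95th percentiles from 8.30 to 10.25, and 9 to 24 genes per library stood at 19.9 or more, the top of the scale.

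The platform annotation pairs 19572 of them with 1 gene symbol, 0 with several symbols and 2634 with no symbol. For 55 genes with several probe sets the one with the highest 4-library mean was kept, which left 19505 genes. In the folds given for single genes, a lower value under its ceiling was set at that ceiling. The 2-fold counts used the deposited difference instead. Pairs were described by counts at 2-fold, with no test, since 1 array per group allows none. The precision is limited by the number of arrays. On simulated libraries of 19505 genes, the rule comparing CD74 with each of the other 3 called 26.15% of genes raised by 2-fold, 98.51% by 4-fold and 100% by 8-fold. The simulation gave every library the same assumed noise and raised only genes above every ceiling. It called 1 of 19305 unchanged genes, while the real CD74 array had 51 of the 1498 background genes called. These rates therefore do not describe genes under the ceiling in the lower libraries, as most receptor genes were.

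The members and the 15 other lists were chosen with earlier results of these data known. Named were all members, up to 4 genes of each pathway list with the largest difference between CD74 and the mean of the others, up to 3 genes of each marker list with the highest CD74 value, markers under the ceiling, and the 5 genes nearest in profile. Lax1 was named after its values were seen. So were Il7r, Nkg7, Klrb1c, Il18rap, Klrc1, Cd5, Cd6, Cd96, Cd226, Cd2, Bcl11b, Tox, Tbx21 and Zbtb7b. Ccr2, Lcp2, Sla, Vav1, Arhgef6, Cbl, Coro1a, Klrd1, Klrk1, Klrg1, Xcl1, Runx3 and Id2 were likewise named after their values were seen. The promoter motifs were also chosen after the values were seen. Alternatives were quantile normalization, median centring, no filter, a ceiling at the 99th percentile, the lower value set at its ceiling, averaging a gene's probe sets, thresholds of 1.5-fold and 4-fold, and each other library left out. Leaving out genes at the top of the scale was added after seeing the data. Python 3.11.15, pandas 2.3.3 and numpy 2.4.6 were used.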

Additional observations from a re-analysis of the deposited data

How the results depend on the processing

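The count of 8 receptor genes at least 2-fold above every other library in CD74 stayed at 8 under quantile normalization, median centring, no filter, both stricter settings of the ceiling, the mean over probe sets, 1.5-fold, without genes at the top of the scale and with each other library left out, and was 6 at 4-fold. The same count over all genes moved from 413 to 1003 after quantile normalization, 1016 with no filter, 173 with the ceiling at the 99th percentile, 166 with the lower value set at its ceiling and 118 at 4-fold, so the share of all genes beside the 8 depends on these choices. With the ceiling at the 99th percentile, receptor genes above it were 1 in Ccrl2, Cd4, and 1 in CD163, Lat. Cd4 in CD163 (6.48 against 6.92) and Cd247 in Ccrl2 (6.16 against 6.39) then lay under it. Their measured folds over these libraries thus depend on the ceiling. Receptor genes higher in Ccrl2 than in CD163 became 1 with median centring and 1 at 1.5-fold, those higher in Ccrl2 than in Trem2 became 1 at 1.5-fold, and those higher in CD163 than in Ccrl2 became 0 at 4-fold. The margin of Cd3e over the nearest library was 6.15 and that of Cd247 2.86 after quantile normalization. Among the marker genes, the difference of CD74 from the mean of the others turned from -1.21 to 0.50 in Bank1 and from -1.49 to 0.35 in Nr4a1 after quantile normalization. Smaller differences turned there too, from -0.60 to 1.04 in Ebf1, from -0.49 to 0.52 in Pecam1, from -0.37 to 0.16 in Mcpt4 and from -0.55 to 0.48 in Fyn; the cause was not tested. No paired analysis was possible because each population had 1 library. The higher ceiling of CD74 limits what can be measured there, as for Zap70.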
